A study of Mus musculus with 10 samples.

Results

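The genes described here encode 4 families of the pre-mRNA splicing machinery: the SR proteins (Srsf genes), the proteins of the spliceosomal snRNPs (Snrp genes), the subunits of splicing factors SF3a and SF3b (Sf3a and Sf3b genes) and the hnRNP proteins (Hnrnp genes). They were taken by symbol from the RefSeq gene table of the GRCm38.p6 assembly, which shares its primary coordinates with mm10. The rule kept 53 of 21627 protein-coding genes on the autosomes and X: 11 SR protein, 12 snRNP, 9 SF3 and 21 hnRNP genes. No measured value entered the rule. The readout was ATAC-seq, in which a transposase inserts adapters into open chromatin. Each library was deposited as a list of peaks, and a gene was called when a region lay within 1000 bp of either gene end (a gene-end peak).

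The 10 libraries came from frozen liver tumours of FVB mice. All mice carried LAP-tta and TRE-MYC, in which a tetracycline-regulated activator under a liver promoter switches on a MYC transgene once doxycycline is taken away. WT tumours (n = 4, about 55 days) were LAP-tta-Arid1aflfl;TRE-MYC, so their Arid1a alleles were floxed and no Cre was present. Het tumours (n = 3, about 70 days) were LAP-tta-Arid1afl/+;Alb-cre;TRE-MYC, and Homo tumours (n = 3, about 100 days) were LAP-tta-Arid1aflfl;Alb-cre;TRE-MYC. Arid1a encodes a DNA-binding subunit of the BAF (SWI/SNF) chromatin remodeller. Alb-cre is active in cells of the hepatocyte lineage, so other cells of a tumour keep the floxed alleles. Tumours were taken when the mice died, and age and the presence of Cre cannot be told apart from genotype. Tumours are numbered within a genotype, with no statement that the numbers stand for different mice, so p-values measure only the spread between these libraries.

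Introns are removed by the spliceosome, which is built from small nuclear RNAs held in protein particles. Sm proteins form a ring on these RNAs, SF3a and SF3b belong to the U2 snRNP that recognises the branch point, SR proteins mostly bind exonic enhancers and favour exon inclusion, and many hnRNP proteins bind silencers or coat the nascent transcript. The promoters of such genes are active in nearly all cells. MYC is known to raise the expression of several splicing factors, SRSF1, hnRNP A1 and hnRNP A2 among them.

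The promoters at which the results turn are printed first. Srsf7, Hnrnpc, Hnrnpa0, Srsf5 and Srsf2 were called in all 10 libraries. Snrpa1 was the only gene of the 53 called in every WT and no Het library. Hnrnpl, chosen after its values were seen, opened mainly at or near an internal transcript start. Each sequence is the 200 bases before the transcript start listed by RefSeq (GRCm38.p6), 5′ to 3′ on the gene's strand. Capitals mark matches, on either strand, to the motifs searched: the E-box with the letters CACGTG, the ETS motif as CCGGAAG, the GC box as GGGCGG, the CCAAT box by its name, the CRE as TGACGT, the NRF1 motif as GCGCATG, the YY1 motif as GATGGCG, the TATA box as TATAAA and the AP-1 motif as TGANTCA.
Srsf7, chr17:80207306-80207505, minus strand: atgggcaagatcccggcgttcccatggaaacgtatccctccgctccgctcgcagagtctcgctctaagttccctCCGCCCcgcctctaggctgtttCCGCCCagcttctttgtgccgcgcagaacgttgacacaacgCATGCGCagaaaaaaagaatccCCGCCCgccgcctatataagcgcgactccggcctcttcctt
Hnrnpc, chr14:52104022-52104221, minus strand: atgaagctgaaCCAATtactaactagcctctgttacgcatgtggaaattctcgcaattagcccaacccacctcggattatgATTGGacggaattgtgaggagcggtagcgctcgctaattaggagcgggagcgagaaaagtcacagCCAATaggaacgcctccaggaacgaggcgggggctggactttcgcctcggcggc
Hnrnpa0, chr13:58128557-58128756, minus strand: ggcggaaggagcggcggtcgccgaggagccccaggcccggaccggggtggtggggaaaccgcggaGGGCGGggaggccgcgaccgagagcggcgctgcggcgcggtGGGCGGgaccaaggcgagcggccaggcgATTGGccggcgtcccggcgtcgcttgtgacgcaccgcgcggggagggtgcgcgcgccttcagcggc
Srsf5, chr12:80945299-80945498, plus strand: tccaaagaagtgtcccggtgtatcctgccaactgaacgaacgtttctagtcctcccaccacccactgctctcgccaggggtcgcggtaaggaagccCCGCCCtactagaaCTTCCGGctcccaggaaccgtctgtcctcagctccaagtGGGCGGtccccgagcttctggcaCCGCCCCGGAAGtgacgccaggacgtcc
Srsf2, chr11:116853095-116853294, minus strand: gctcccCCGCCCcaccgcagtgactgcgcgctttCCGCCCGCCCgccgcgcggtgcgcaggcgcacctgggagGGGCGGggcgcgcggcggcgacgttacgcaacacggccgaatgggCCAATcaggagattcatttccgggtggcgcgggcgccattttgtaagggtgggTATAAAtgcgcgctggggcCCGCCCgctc
Snrpa1, chr7:66060136-66060335, plus strand: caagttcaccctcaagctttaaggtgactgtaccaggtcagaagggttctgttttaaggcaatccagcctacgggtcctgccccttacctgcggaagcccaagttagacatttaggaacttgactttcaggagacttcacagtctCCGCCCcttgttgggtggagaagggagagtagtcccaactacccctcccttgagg
Hnrnpl, chr7:28810690-28810889, plus strand: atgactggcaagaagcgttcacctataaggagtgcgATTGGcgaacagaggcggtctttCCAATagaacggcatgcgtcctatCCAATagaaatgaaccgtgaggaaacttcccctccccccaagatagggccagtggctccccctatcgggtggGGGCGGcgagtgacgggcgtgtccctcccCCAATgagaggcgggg
Srsf7 held 3 GC boxes and 1 NRF1 match, and Hnrnpc held CCAAT boxes only, in 3 copies. Srsf2 had 5 GC boxes, 2 of them overlapping, besides 1 CCAAT box and 1 TATA box, the latter beginning 29 bases before the start. In Srsf5 the last GC box and the second ETS match shared 1 base. Snrpa1 held a single GC box. A match describes letters only and shows no binding.

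Depth differed widely between the lists and has to be kept beside every count. The lists held 1748 (Homo 2) to 9587 (Homo 3) regions. Background, the fewest tags that the peak caller took as the local level and used here as the depth of a library, ran from 0.464 tags (Homo 2) to 1.745 tags (WT 1), a 3.76-fold range. Background was 0.985 to 1.745 tags in WT, 0.655 to 0.738 in Het and 0.464 to 1.608 in Homo libraries. Arid1a overlapped a called region in all WT libraries, in Het 1, Het 3 and Homo 3, and had a region near a gene end in Homo 1 only. The labels do not say which part of Arid1a is floxed, so these regions check no deletion. Of 11 hepatocyte marker genes, 7 had a gene-end peak in at least 1 library (the plasma protein genes Alb, Apoa1 and Apob among them), with 1 to 6 per WT, 0 to 1 per Het and 0 to 5 per Homo library. None of 6 endothelial, 6 lymphocyte or neutrophil and 6 stellate or fibroblast markers was called in any library. Spi1 (macrophages), Epcam (cholangiocytes) and Nfe2 (erythroid cells) were the only other markers called, each at most once per library. In such bulk tissue, fewer cells with an open site and less opening per cell cannot be told apart. The part of depth and of cell composition in the counts below was not tested, except that depth was equalised as described.

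Splicing factor genes were often open in these tumours. A gene-end peak was called at 47 of the 53 genes (88.7%) in at least 1 library, against 9215 of 21627 protein-coding genes (42.6%). In WT tumours 45, 41, 39 and 39 of the 53 were called in replicates 1 to 4. The Het libraries had 32, 30 and 17, and the Homo libraries 27, 13 and 45. All 4 WT libraries therefore lay above all 3 Het libraries, whereas the Homo libraries spanned both groups: Homo 3 matched WT 1 and Homo 2 was the lowest of all 10. WT libraries averaged 41 ± 2.83 genes (SD, n = 4), Het libraries 26.3 ± 8.14 (n = 3) and Homo libraries 28.3 ± 16 (n = 3). Over all protein-coding genes the called share followed a similar order of libraries, from 6.79% in Homo 2 to 37.0% in Homo 3, so that the share among the 53 genes exceeded it 2.17-fold (WT 4) to 3.61-fold (Homo 2). A further 107 genes of the splicing machinery, listed by name and belonging to none of the 4 families, were called at 72.9% to 89.7% in WT, 25.2% to 65.4% in Het and 19.6% to 89.7% in Homo libraries. The 53 genes thus moved between libraries together with the rest of the splicing machinery and with gene ends in general.

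**Figure D1:**
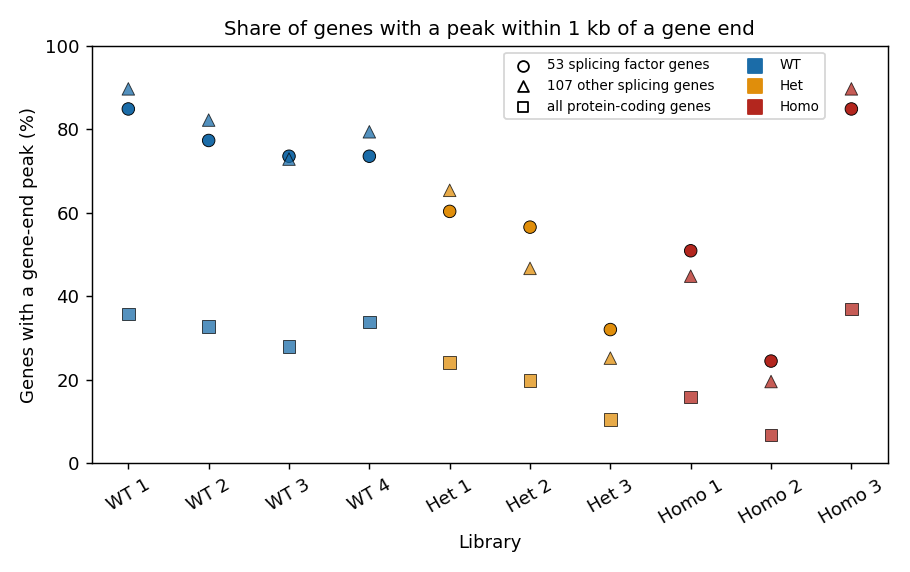
Share of genes with a peak within 1 kb of a gene end (y axis, percent) in each of the 10 libraries (x axis), for the 53 splicing factor genes (circles), 107 other splicing genes (triangles) and all protein-coding genes (squares), coloured by Arid1a genotype. In every library both splicing lists lie above all genes, and all 3 are lower in the Het libraries than in any WT library, lowest in Homo 2 and highest in WT 1 and Homo 3 (84.9% of the 53 genes in each).

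Genes called in the other libraries were nearly all called in WT 1 as well, which held 45 of the 53. Every one of the 53 that was called in WT 3, WT 4, any Het library, Homo 1 or Homo 2 was also called in WT 1 (100% of each). WT 1 and Homo 3, the deepest libraries, had 45 each and shared 44. All 13 genes called in Homo 2 were called in WT 1, WT 3, WT 4 and Homo 3 as well. The only genes called elsewhere and not in WT 1 were Snrpf, called in WT 2 alone, and Hnrnpl, called in Homo 3 alone. Shorter lists were not nested in each other. Het 3 held 8 of the 13 genes of Homo 2 and 12 of the 27 of Homo 1, and Het 1 held 26 of the 30 of Het 2. Such overlaps are not given here over all protein-coding genes.

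The distance between genotypes was smaller once the lists were brought to one depth. When the tags at each summit were thinned at random to the depth of Homo 2, the WT libraries kept 26, 30, 34 and 22 of the 53 genes, the Het libraries 29, 28 and 13, and the Homo libraries 17, 13 and 34. The groups now overlapped: WT libraries averaged 28 ± 5.16 (n = 4), Het libraries 23.3 ± 8.96 (n = 3) and Homo libraries 21.3 ± 11.2 (n = 3). At this depth the mean share of all protein-coding genes was 20.99% in WT, 16.01% in Het and 13.73% in Homo libraries. The 53 genes thus kept the order of gene ends in general, with WT highest on average. Over 20 such draws the counts lay between 22 and 37 in WT, 11 and 32 in Het and 13 and 37 in Homo libraries. The counts and means above come from 1 draw, in which WT 4 stood at the lowest of its 20 draws (22 to 33). Calls of single genes at equal depth, given below, rest on that draw too. With the 1748 strongest regions of each list, the counts were 8, 11, 17 and 11 in WT, 3, 15 and 13 in Het and 11, 13 and 12 in Homo. Homo libraries then had 12 ± 1, WT libraries 11.75 ± 3.77 and Het libraries 10.3 ± 6.43. Mean shares of all protein-coding genes were 7.17%, 7.39% and 7.12% in the same order. The difference between Het and WT fell from -14.7 genes in the deposited lists (pooled SD 5.60) to -4.67 at equal depth and -1.42 at equal number, and that between Homo and WT went from -12.7 (pooled SD 10.4) to -6.67 and 0.25.

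**Figure D2:**
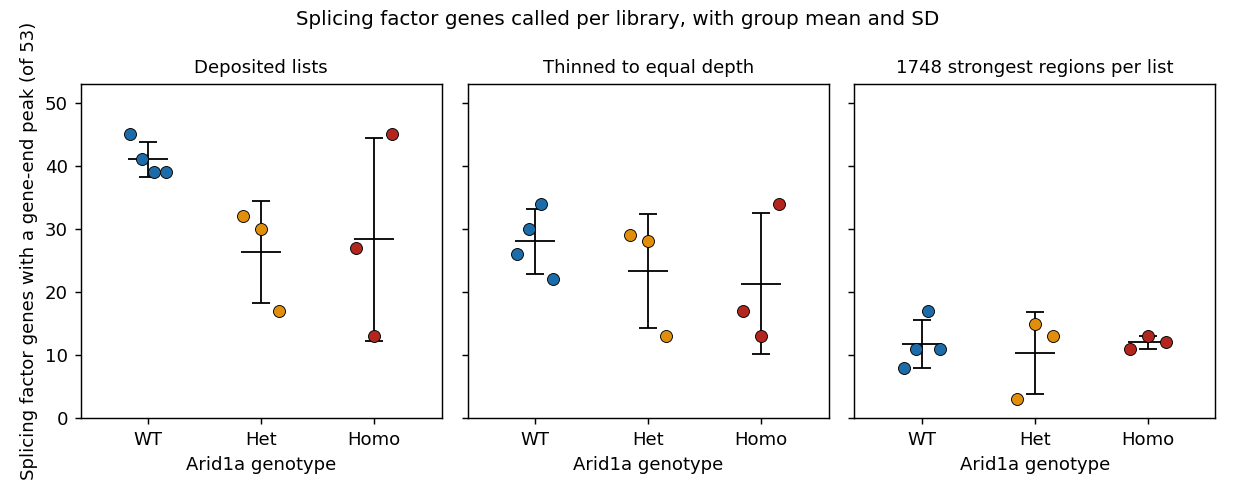
Number of the 53 splicing factor genes with a gene-end peak (y axis) by Arid1a genotype (x axis), in the deposited lists, after thinning to equal depth and in the 1748 strongest regions of each list; points are libraries, bars the group mean and SD (WT n = 4, Het n = 3, Homo n = 3). WT lies above Het only in the deposited lists (39 to 45 against 17 to 32), and the groups overlap in both other panels.

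No gene of the 53 separated WT from Homo tumours. Genes called in every WT and no Homo library made up 0.129% of all protein-coding genes, and the reverse pattern 0.00462%; both held 0 of the 53. Calls in every WT and no Het library were found at 2.2% of all genes and at 1 of the 53, Snrpa1, a share near the background. The reverse, every Het and no WT library, was seen at 0.00462% of all genes and at 0 of the 53. Between the Cre groups, 0.139% of all genes were called in every Homo and no Het library and 0.0139% in every Het and no Homo library, again with 0 of the 53. Likewise 0 of the 53 were among the 0.0647% called in every WT and no Het or Homo library, and 0% of all genes showed the opposite. Of the 107 other splicing genes, 6 were called in every WT and no Het library: the tri-snRNP proteins Prpf6, Prpf8 and Sart1, the helicase Dhx16, the spliceosome assembly protein Crnkl1 and the U2af1 paralogue U2af1l4.

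Fisher's exact test of presence per gene (two-sided, Benjamini-Hochberg over 21627 genes) gave no call in any of 4 comparisons: 0 genes passed an adjusted p of 0.05, and the smallest adjusted p was 1. At an unadjusted p under 0.05 there were 29 genes for Homo against WT, 476 for Het against WT, 0 for Homo against Het and 397 for WT against the 6 other libraries together. Among the 53 these counts were 0, 1 (Snrpa1), 0 and 0. With 4 against 3 libraries the smallest p that the exact test allows is 0.0286, and with 3 against 3 it is 0.1. None of the 3 pairwise comparisons could pass: only 9147 genes (Homo and WT) and 8885 genes (Het and WT) had any peak, too few for a p of 0.0286 to reach an adjusted 0.05 over 21627 genes. These 3 tests therefore say nothing on whether single genes differed. For WT against the 6 other libraries the smallest exact p was 0.00476, and 9215 genes had any peak. That comparison could have passed if enough genes had shared the smallest p, and it gave 0 genes.

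Snrpa1 encodes a leucine-rich repeat protein specific to the U2 snRNP and lies on the plus strand at chr7:66060336-66074587. The tags at its summit numbered 24, 21, 15 and 16 in WT 1 to WT 4, 13 in Homo 1 and 28 in Homo 3. Its folds over local background, as deposited, were 7.81, 7.75, 7.08 and 5.74 in WT and 5.98 and 8.73 in Homo 1 and Homo 3. The gene was thus called in 4 of 4 WT, 0 of 3 Het and 2 of 3 Homo libraries (exact Fisher p = 0.0286 for Het against WT, adjusted p = 1). At equal depth it remained called in 2 of 4 WT, 0 of 3 Het and 1 of 3 Homo libraries, and it was not among the 1748 strongest regions of any library. In each of the 6 lists the summit lay inside the gene, 168 to 208 bp after the start listed by RefSeq, and the region did not cover that start. Of the 32 genes called in every WT library that have a listed promoter, Snrpa1 had the lowest ratio of observed to expected CpG in that promoter, 0.365. Leaving out Het 1 or Het 2 raised the number of genes called in every WT and no remaining Het library from 1 to 5, Snrpa1 included in both cases, and leaving out Het 3, WT 3 or WT 4 raised it to 2. The share of all protein-coding genes with this pattern is not given for the reduced sets.

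**Figure D3:**
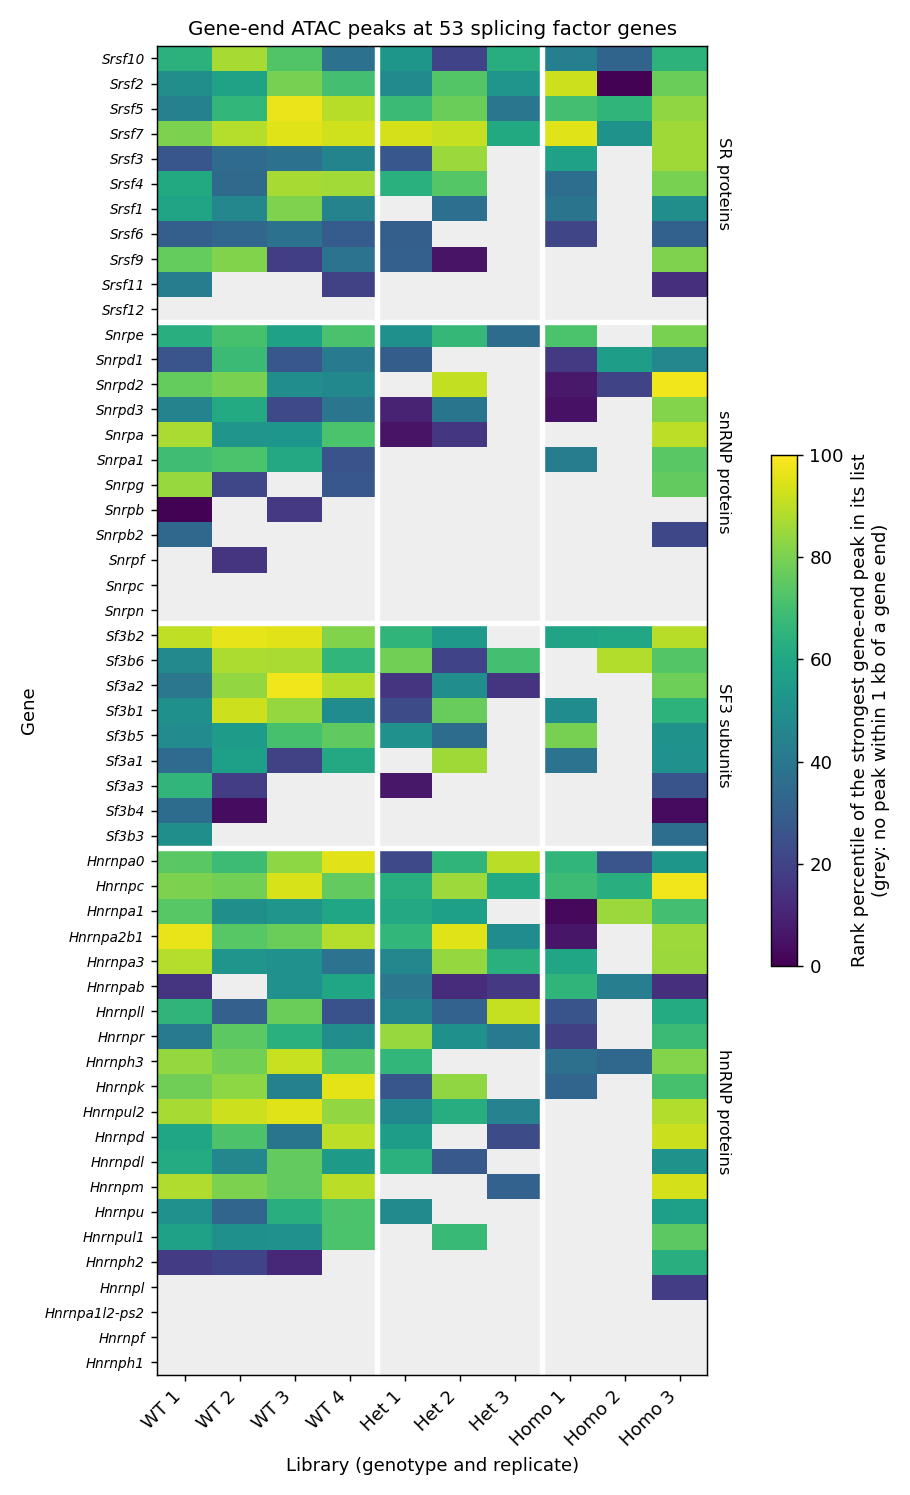
Strongest gene-end peak of each of the 53 splicing factor genes (rows, by family) in each library (columns, by genotype), coloured by its rank percentile by −log10 p within that library's own list (100 is the strongest region, grey means no gene-end peak). The 6 genes called in all 10 libraries head the SR and hnRNP blocks, Snrpa1 has no colour in the Het columns, and Homo 2 has the most grey cells.

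The SR proteins, which recruit the spliceosome to exons, included 4 of the 6 genes called in all 10 libraries. Those 6 made up 11.3% of the 53, beside 2.27% of all protein-coding genes and 3.74% of the other splicing genes. Per library 9 to 10 of the 11 Srsf genes were called in WT, 4 to 8 in Het and 4 to 10 in Homo. The strength of a region is given below as its rank percentile by −log10 p within its own list, where 100 is the strongest. Since the lists differ in length, these ranks order regions within a library and show no change between libraries.

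Srsf7, which has a zinc knuckle beside its RNA recognition motif, had the highest median rank percentile of the 4, 90.1. It ranked at 80.1, 88.8, 95.2 and 92.6 in WT 1 to WT 4, at 93.6, 91.3 and 60.6 in Het 1 to Het 3, and at 95.3, 51.5 and 85.6 in Homo 1 to Homo 3. Het 3 and Homo 2, the shortest lists, gave the lowest ranks. The deposited folds were 5.64 to 8.37, and Srsf7 stayed called in 9 of 10 libraries both at equal depth and among the 1748 strongest regions. Its region also lay at an end of Gemin6, whose product belongs to the SMN complex that assembles Sm rings, so the 2 genes cannot be told apart by this readout.

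Srsf5 ranked at 44.1, 66.1, 97.1 and 89.2 in WT, at 68.1, 77.6 and 39.4 in Het and at 70.1, 65.5 and 83.4 in Homo libraries. In 8 libraries the summit of its strongest region lay 34 to 83 bp before the start at 80945499 on chromosome 12, and in Het 3 and Homo 1 it lay 315 and 700.0 bp after that start. Srsf2 (SC35, a marker protein of nuclear speckles) ranked from 0.629 in Homo 2, with 12 tags at the summit, to 92.4 in Homo 1. Up to 3 separate regions were called around it in 1 library, and in 9 of 10 libraries the strongest also touched an end of Mfsd11. Srsf10, known as a splicing repressor when dephosphorylated, ranked at 64.4, 87.0, 72.7 and 37.4 in WT, 20.3 to 62.2 in Het and 43.0, 32.2 and 64.7 in Homo libraries. Its regions were 731 to 897 bp wide in WT libraries and 320 to 388 bp in Het libraries, while Homo libraries ranged from 338 to 819 bp.

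Srsf1, a prototype SR protein and a MYC target in other settings, was called in 4 of 4 WT, 1 of 3 Het (Het 2) and 2 of 3 Homo libraries. It had 23, 20, 23 and 22 summit tags in WT, 12 in Het 2, and 14 and 25 in Homo 1 and Homo 3, so the called libraries overlapped between WT and Homo. Srsf6 was called in the same numbers, with ranks of 20.7 to 37.6 throughout. Srsf3 and Srsf4 were called in 8 libraries each and Srsf9 in 7. Srsf11 had a gene-end peak in WT 1, WT 4 and Homo 3 only, but a region covered its other listed start, 158031748 on chromosome 3, in all 4 WT libraries, Het 2, Het 3 and Homo 3. Srsf12 had no gene-end peak.

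The snRNP genes had the lowest mean share called of the 4 families in each genotype, 64.6% in WT, 25% in Het and 41.7% in Homo, beside 32.6%, 18.2% and 19.9% of all protein-coding genes. In Het libraries this share was near that of all genes. Of 12, 7 to 9 were called in WT, 1 to 4 in Het and 2 to 8 in Homo libraries, and none was called in all 10. The 6 called in every WT library were Snrpe, Snrpd1, Snrpd2 and Snrpd3 (Sm ring proteins), Snrpa (of the U1 snRNP) and Snrpa1. Snrpe was the most regular, missing only in Homo 2, with folds of 5.83 to 9.06. Snrpd2 reached the 97.7 rank percentile in Homo 3 but stood at 6.80 in its weakest library. The remaining Sm genes were rare: Snrpb was called in WT 1 and WT 3, Snrpf in WT 2, and Snrpg in 3 WT libraries and Homo 3. Snrpb2, whose product binds the U2 RNA together with that of Snrpa1, appeared in WT 1 and Homo 3. Snrpc, another U1 snRNP protein, and Snrpn, an imprinted gene expressed chiefly in neurons, had no gene-end peak in any library.

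All 9 SF3 genes were called in WT 1 and in Homo 3. The other libraries had 8, 6 and 6 in WT, 6, 6 and 2 in Het and 4 and 2 in Homo. Sf3b2 was called in 9 libraries, with a median rank percentile of 81.1 and folds of 6.71 to 9.84. In the WT libraries its region at the start ranked at 90.4, 96.5, 95.3 and 81.1. In Het 2 only the far end of Sf3b2 was called, and in Homo 1 the strongest region also lay at the far end. Among the 1748 strongest regions of each list Sf3b2 was present in 4 of 4 WT, 0 of 3 Het and 3 of 3 Homo libraries, a pattern absent from the deposited lists, where 2 of 3 Het libraries had it. The list of Homo 2 holds 1748 regions in all, so its call could not change. In Homo 1 the far-end region, shared with Pacs1, was the strongest, and these calls do not separate the 2 ends of the gene. How many of all protein-coding genes show this pattern at that setting is not given, so it is not shown to be particular to Sf3b2. Sf3b1, which contacts the branch point and is recurrently mutated in blood cancers, was called in 8 libraries with folds of 6.05 to 9.09. Sf3b6, the branch point protein p14, was called in 9, and Sf3a2 in all WT and Het libraries but only 1 Homo library. Sf3a1 and Sf3b5 were called in 7 and 8 libraries, and Sf3a3, Sf3b3 and Sf3b4 in 4, 2 and 3.

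Among the 21 hnRNP genes, 16 to 17 were called in WT, 10 to 14 in Het and 5 to 18 in Homo libraries. Hnrnpc, which binds uridine-rich tracts, was called in all 10 and had the highest lowest rank of the 6 such genes, 61.1 (Het 3). Its ranks were 80.1, 78.7, 93.8 and 75.8 in WT, 63.2, 85.4 and 61.1 in Het, and 68.6, 63.2 and 97.8 in Homo libraries. The 47 summit tags and 10.8-fold enrichment in Homo 3 were its highest values, and 11 tags in Homo 2 its lowest. Hnrnpc shared its region with an end of Rpgrip1 in every library.

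Hnrnpa0, whose product binds AU-rich elements, was the only gene of the 53 called in all 10 libraries at equal depth. It ranked at 74.3, 68.7, 83.0 and 95.5 in WT, 21.9, 65.5 and 89.8 in Het and 65.8, 26.3 and 53.1 in Homo libraries. Its regions measured 614 to 669 bp in WT, 202 to 321 bp in Het and 200 to 538 bp in Homo libraries, so no Het or Homo region was as wide as any WT region. The part of depth and of the library in this width was not tested, and Homo 3, nearly as deep as WT 1, had the 538 bp region. Over all gene-end regions the median width was 353 to 401 bp in WT, 273 to 314 bp in Het and 244 to 430 bp in Homo libraries. How many of all protein-coding genes called in all 10 libraries show such a gap in width was not counted. The gap is thus not shown to be particular to Hnrnpa0. Between WT and Het, Srsf10, Srsf7 (626 to 877 against 309 to 541 bp) and Hnrnpc (550 to 719 against 444 to 537 bp) had one too. Srsf2 and Srsf5 had none.

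Hnrnpab was called in 9 libraries and was missing only in WT 2. Hnrnpa1 and Hnrnpa2b1, regulators of pyruvate kinase splicing downstream of MYC, were called in 9 libraries each, Hnrnpa1 not in Het 3 and Hnrnpa2b1 not in Homo 2. Both had very weak regions in Homo 1, at the 2.07 and 6.08 rank percentiles. Hnrnpm, Hnrnpu and Hnrnpul1 were called in all 4 WT libraries, 1 Het and 1 Homo library each. Hnrnpa3, Hnrnpr, Hnrnpll and Hnrnpul2 were called in all WT and Het libraries, the first 3 also in 2 of 3 Homo libraries and Hnrnpul2 in 1. Hnrnph3 and Hnrnpk were called in 8 libraries each, Hnrnpd and Hnrnpdl in 7 each, and the X-linked Hnrnph2 in 3 WT libraries and Homo 3. For Hnrnpm the summit tags were 30, 22, 19 and 26 in WT, 10 in Het 3 and 36 in Homo 3. Without Homo 3, 9 genes were called in every WT and no Homo library (Sf3a2, Snrpa, Srsf9, Hnrnpd, Hnrnpdl, Hnrnpm, Hnrnpu, Hnrnpul1 and Hnrnpul2), and with it 0. Without Homo 2, 11 genes instead of 6 were called in all remaining libraries. Shares of all protein-coding genes are not given for these reduced sets, so neither count is shown to be particular to splicing genes.

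Of the 6 genes with no gene-end peak, 2 were open at another start. Hnrnpf and Hnrnph1, paralogues that bind G-rich tracts, had regions at internal transcript starts listed by RefSeq in all 10 libraries, an alternative added after the data were seen. At Hnrnpf these regions clustered near the starts at 117907804 and 117917294 on chromosome 6, and at Hnrnph1 near 50377678 on chromosome 11. Hnrnpl was similar, with a gene-end peak in Homo 3 alone (rank percentile 18.3). A region lay within 1000 bp of its listed start, 28810890 on chromosome 7, in 4 WT, 3 Het and 1 Homo library. It covered that start in WT 1, WT 3, Het 1 and Homo 3 only. That start lies inside the gene as the table draws it, which begins at 28808546. With these starts counted, 48, 45, 43 and 42 genes were called in WT, 35, 34 and 22 in Het and 29, 16 and 47 in Homo libraries, and 8 genes in all 10. The mean share of all protein-coding genes rose as well. It went from 32.63% to 35.03% in WT, 18.16% to 19.61% in Het and 19.92% to 21.44% in Homo libraries. Whether the rise is particular to splicing genes was not tested. The share of all genes called in all 10 libraries with these starts is not given. Srsf12, Snrpn, Snrpc and the retrocopy-like record Hnrnpa1l2-ps2 remained uncalled.

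Regions lay close to transcript starts. For 41 genes with a listed start and a peak, the median distance from start to summit was -67 bp (quartiles -254 and -32), where negative is upstream. The summit was upstream at 35 of them and within 250 bp at 30. Snrpa1 (177.5 bp downstream) and Hnrnpl (-1754 bp) were the extremes. Of 290 regions, 205 (70.7%) covered a listed start, beside 74.7% over all protein-coding genes. Of the 47 called genes, 22 (46.8%) shared their strongest region in at least 1 library with an end of another protein-coding gene, against 2842 of 9215 called genes (30.8%) among all. Srsf7 with Gemin6, Hnrnpul2 with Ttc9c, Hnrnpm with Marchf2 and Hnrnpa2b1 with Cbx3 shared the strongest region in every library that had one, so accessibility there cannot be assigned to either gene. Sf3b2 shared only its far-end region with Pacs1, in Het 2 and Homo 1 (rank percentiles 54.1 and 58.5), and in the other 7 libraries its strongest region lay at its own start and at no other gene's end.

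**Figure D4:**
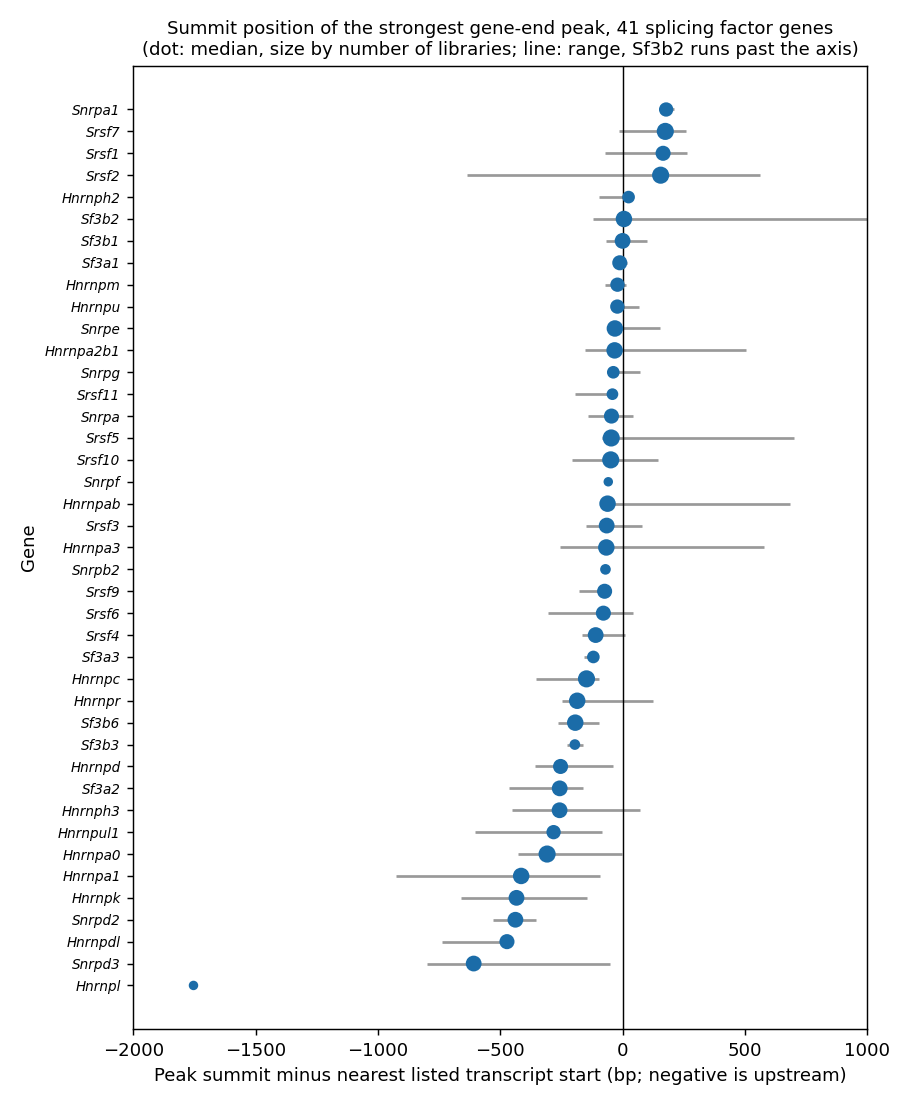
Position of the strongest gene-end peak's summit relative to the nearest transcript start listed by RefSeq (x axis, bp, negative is upstream) for 41 splicing factor genes (y axis); dots are medians over the libraries with a peak, dot size grows with their number and lines span the range. Most medians lie between -254 and -32 bp, Snrpa1 is farthest downstream at 177.5 bp, Hnrnpl farthest upstream at -1754 bp, and the Sf3b2 line leaves the axis because its far end was the strongest in Het 2 and Homo 1.

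Promoters of the 53 genes, as listed, were rich in CpG. Promoter sequences, here 250 bases before to 50 after a start, were found for 47 of the 53 (64 promoters). Their median ratio of observed to expected CpG was 0.914, beside 0.574 over 21044 promoters of all protein-coding genes, and their median GC content 60.7% beside 56.7%. A GC box was found in 67.2% of them against 46.7% of all promoters, an ETS motif in 32.8% against 11.7%, and a CRE in 18.8% against 8.58%. CCAAT boxes (45.3% against 38.5%) and TATA boxes (12.5% against 12.7%) were closer, and AP-1 was found in 3.13% against 7.04%. The E-box, the hexamer that MYC and MAX bind, was present in 10.9% against 7.91%, at Hnrnpa3, Hnrnpd, Hnrnpf, Hnrnph2, Hnrnpm and Snrpa. Genes called in every WT library numbered 36 of 53 (67.9%, against 23.4% of all genes), and the 38 listed promoters of 32 of them had a median CpG ratio of 0.968. For genes called in 0 to 4 libraries the median was 0.822 over 25 promoters of 14 genes, Hnrnpf and Hnrnph1 with their internal starts included. The share with 0 libraries was 11.3% of the 53 and 57.4% of all genes.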

How the data were processed

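ATAC-seq of 10 frozen tumour samples was deposited as 1 narrowPeak list per library. The tools were Bowtie2, MACS2 and deepTools and the build was mm10, per the submitters' processing notes. Those notes and the labels state no versions, peak calling settings, read filters, transposase shift or read numbers. In the deposited lists the authors give each peak a score (the −log10 p times 10 without its decimals, in 99.97% of rows), a fold over background (a ratio), a −log10 p and a −log10 q. The smallest deposited −log10 p was 5.00. These are the authors' values per peak, used only within a list.

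Touching rows were merged into regions. The deposited fold and −log10 p gave back a whole-number pileup and a background for 61345 of 61345 rows (tolerance 0.001 in −log10 p). The smallest background of at least 0.4 tags shared by 10 rows or more was taken as depth. It was not checked against read totals, and PCR duplicates cannot be seen in these lists. Pileups were thinned to 0.464 tags with a −log10 p of at least 5 kept (1 seeded draw, with 20 draws for its range), and lists were also limited to 1748 regions. Groups came from the titles. Fisher's exact test used scipy 1.17.1 in Python 3.11.15. Recovery, calls and patterns were tested on simulated data.

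The 53 genes, the other lists and the tests were chosen with earlier results of these data known. Genes were named by rule: those called in every library of one genotype and none of another, in 0 or in all 10 libraries, at the far end only, or sharing a region with another gene (up to 5). Further genes were named after their values were seen, to account for all 53. The RefSeq table gives no exons or UTRs. Strand came from the promoter table, which held 47 of the 53. Counts at listed transcript starts were an alternative chosen after seeing the data.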

Additional observations from a re-analysis of the deposited data

Results flagged for a closer look

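Among 32 sets of 4 WT values (7 whole-library measures, the number of genes called in each of 4 families, and the fold, rank percentile and width of the regions of the 7 named genes), 1 had a library far from the other 3. The region of Hnrnpa0 was 614 bp wide in WT 1 and 660 to 669 bp in WT 2 to WT 4, a gap of 0.836 of the whole range, just above Dixon's 95% critical value for 4 samples. Chance flags about 1 in 20 such sets. WT 1 had the highest background of the 4, 1.745 tags, and the part of depth in this width was not tested.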

How the results depend on the processing

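The number of the 53 genes called in all 10 libraries (6 in the deposited lists) was 1 with a −log10 p of at least 10, 1 at equal depth and 0 with an equal number of regions, and 6 to 11 with 1 replicate left out. Windows of 500 and 2500 bp gave 4 and 8. Genes called in every WT and no Het library numbered 1, but 5 with a −log10 p of at least 10 and 2 with an equal number of regions (Hnrnpm and Sf3b2), and 1 to 5 with a replicate left out. At equal depth the 1 gene was Hnrnpul1, not Snrpa1. Genes called in every WT and no Homo library numbered 0 to 9 with a replicate left out, and 0 under the other settings. Genes called in every WT and no Het or Homo library stayed at 0 under every setting run. Shares of all protein-coding genes with these patterns are given for the deposited lists only. Counts of the 53 under the other settings therefore cannot be read as particular to splicing genes.

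The mean difference between Het and WT (-14.7 genes) was -21.75 with a −log10 p of at least 10, -4.67 at equal depth, -1.42 with an equal number of regions, and -17.5 to -10 with a replicate left out. The difference between Homo and Het (2 genes, pooled SD 12.7) reversed at equal depth, to -2, and ran from -6.33 (without Homo 3) to 9.67 (without Homo 2), with -2.67 without Het 3. The difference between Homo and WT (-12.7 genes) reversed with an equal number of regions, to 0.25, and was -21 (without Homo 3) to -5 (without Homo 2). Apart from the matching of depth and number, which by construction removes regions from the longer lists, the cause was not tested.

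Libraries with the same replicate number did not deviate together: over genes, their deviations from the group means correlated at -0.0769 to 0.0249 in 9 same-number pairs and -0.0536 to 0.101 in 24 others. A replicate block over numbers 1 to 3 gave -15.3 for Het minus WT, 2 for Homo minus Het and -13.3 for Homo minus WT, with no change of direction. A gene without a peak in Homo 2, the shallowest library, is not shown to be closed. Het 3 had the highest background of the Het libraries (0.738 tags) and the fewest genes called of the 3, 17 as deposited and 13 at equal depth.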
